A study of Homo sapiens with 36 samples.

Results

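The lysosome and autophagy genes followed here are 42 genes picked by name from general knowledge of the pathway, out of 60662 gene IDs in the deposited table of A549 cells. These genes were chosen with earlier results of these data known. They comprise 3 MiT/TFE transcription factors (TFEB, TFE3 and MITF), 2 autophagy receptors (SQSTM1 and NBR1), 4 proteins of the ATG8 family (MAP1LC3B, GABARAP, GABARAPL1 and GABARAPL2) and 8 genes of initiation and membrane nucleation (ULK1, ULK2, BECN1, ATG14, UVRAG, WIPI1, WIPI2 and ATG9A). A further 5 genes belong to the ATG8 conjugation machinery (ATG3, ATG5, ATG7, ATG12 and ATG16L1), 4 encode lysosomal membrane proteins (LAMP1, LAMP2, NPC1 and MCOLN1), 9 encode hydrolases and other proteins of the lysosomal lumen (CTSA, CTSB, CTSD, CTSL, CTSZ, GLA, HEXA, NEU1 and NPC2), 3 are V-ATPase subunits (ATP6V0D1, ATP6V1A and ATP6V1H) and 4 belong to the Rag and folliculin group (FLCN, FNIP1, RRAGC and RRAGD). All 42 were present in the table, and all 42 passed the filter on low counts in each fit.

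Macroautophagy wraps portions of cytoplasm in a double membrane and delivers them to the lysosome, where acid hydrolases break them down and return amino acids, sugars and lipids to the cell. The ULK kinases start the process, the BECN1 lipid kinase complex marks the nascent membrane, WIPI proteins read that mark, and ATG8 proteins are coupled to the membrane lipid, where receptors such as SQSTM1 bind them with their cargo. When nutrients are plentiful, mTORC1 on the lysosomal surface holds TFEB and TFE3 in the cytoplasm through the Rag GTPases and folliculin. When they are scarce, these factors can enter the nucleus and activate lysosomal and autophagy genes through an E-box with specific flanks, the CLEAR element.

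RNA sequencing was done on A549, an established human lung adenocarcinoma line. The cells received 100 nM of siRNA against ATF4 (siATF4), against ATF6 (siATF6) or of a non-targeting siRNA (siControl), so that the controls were transfected too. After replating, they were kept without glucose (0 mM) or in 25 mM glucose for 6 or 16 h, in both cases in DMEM with dialysed serum and glutamine. Each of the 12 combinations of siRNA, glucose and time holds 3 libraries that the labels call biological replicates, all of 1 cell line. ATF4 is the factor that the integrated stress response translates to raise amino acid metabolism, and ATF6 is a membrane-bound sensor of the unfolded protein response.

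The totals of 35 libraries lay between 39.4 and 78.7 M expected counts. The remaining library, siATF4 in 0 mM at 6 h, replicate 3, held 2.87 M, correlated with the others at 0.0299 or less, and is left out of the fits below unless a fit of all 36 libraries is named. At 6 h, replicate 2 of siControl and of siATF6 went against the glucose labels, and whether their 0 mM and 25 mM libraries carry each other's labels was not tested. The direction of each 6 h value rests on the labels as given. Over 1886 genes that deprivation changed at 16 h, the correlation of the 6 h with the 16 h differences in siControl was 0.703 in replicate 1, -0.72 in replicate 2 and 0.657 in replicate 3. In siATF6 these values were 0.667, -0.683 and 0.591 (across genes, which are not independent replicates), and in siATF4 they were 0.672 in replicate 1 and 0.62 in replicate 2. The results at 6 h are therefore given with and without replicate 2, and those at 16 h rest on the 18 libraries of that time alone. Levels are in CPM, read counts divided by library size and scaled by TMM factors. At 16 h, ATF6 stood at 14.9 ± 4.82 CPM in siATF6 and 89.1 ± 1.02 CPM in siControl cells in 0 mM (SD, n = 3 each). ATF4 stood at 184 ± 32.7 CPM in siATF4 and 450.2 ± 34.5 CPM in siControl cells in 0 mM. In 25 mM glucose ATF4 was at 127 ± 9.92 CPM in siATF4 and 154 ± 19.4 CPM in siControl cells, a difference that did not pass the test (edgeR, adjusted p = 0.759). Of the markers for an epithelial line, KRT8, KRT18 and AKR1B10 were each at 908 CPM or more in every library of 16 h, whereas NKX2-1 and SFTPC were at no more than 0.134 CPM. The leukocyte markers CD3E and MPEG1 were at 0 and PTPRC at or near 0. The sum of the 7 leukocyte markers, nearly all of it CD14, ranged over 1.81 to 3.06 CPM in 0 mM and 5.54 to 7.07 CPM in 25 mM in siControl cells at 16 h. The sum of the 3 fibroblast markers, nearly all of it COL1A1, ranged over 6.84 to 9.22 CPM in 0 mM and 18.7 to 21.2 CPM in 25 mM, with DCN at no more than 0.127 CPM in any library of 16 h. CD14 fell at -1.38, COL1A1 at -1.36 and the epithelial marker KRT19 at -0.75 (edgeR log2 fold changes, siControl, 16 h). The part of these markers in the results was not tested.

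The first comparison asks how the pathway's mRNAs respond to 16 h without glucose in siControl cells. Members rose in each role other than the MiT/TFE factors and the V-ATPase, and both receptors and all 4 genes of the Rag and folliculin group did. WIPI1 rose most, by a log2 fold change (0 mM over 25 mM) of 2.63, followed by MAP1LC3B at 2.20, GABARAPL1 at 1.74, SQSTM1 at 1.31 and CTSL at 1.24. The 1 member that fell was TFEB, at -1.03. In edgeR's quasi-likelihood test, with p-values adjusted over 18013 genes, 19 of the 42 members rose and 1 fell, against 14.6% of all genes tested that rose and 14.5% that fell. The median log2 fold change was 0.40 over the members and 0.0093 over all genes. Below, ± beside a log2 value is its standard error and beside CPM the standard deviation. In 25 members each 0 mM library lay above each 25 mM library, and in 3 each lay below, against 25.6% and 26.3% of all genes. A fit of all 36 libraries, the failed one included, gave 3 members past the threshold in siControl cells. In these bulk samples a change in the mRNA per cell and a change in the share of cells that express a gene cannot be told apart.

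**Figure D1:**
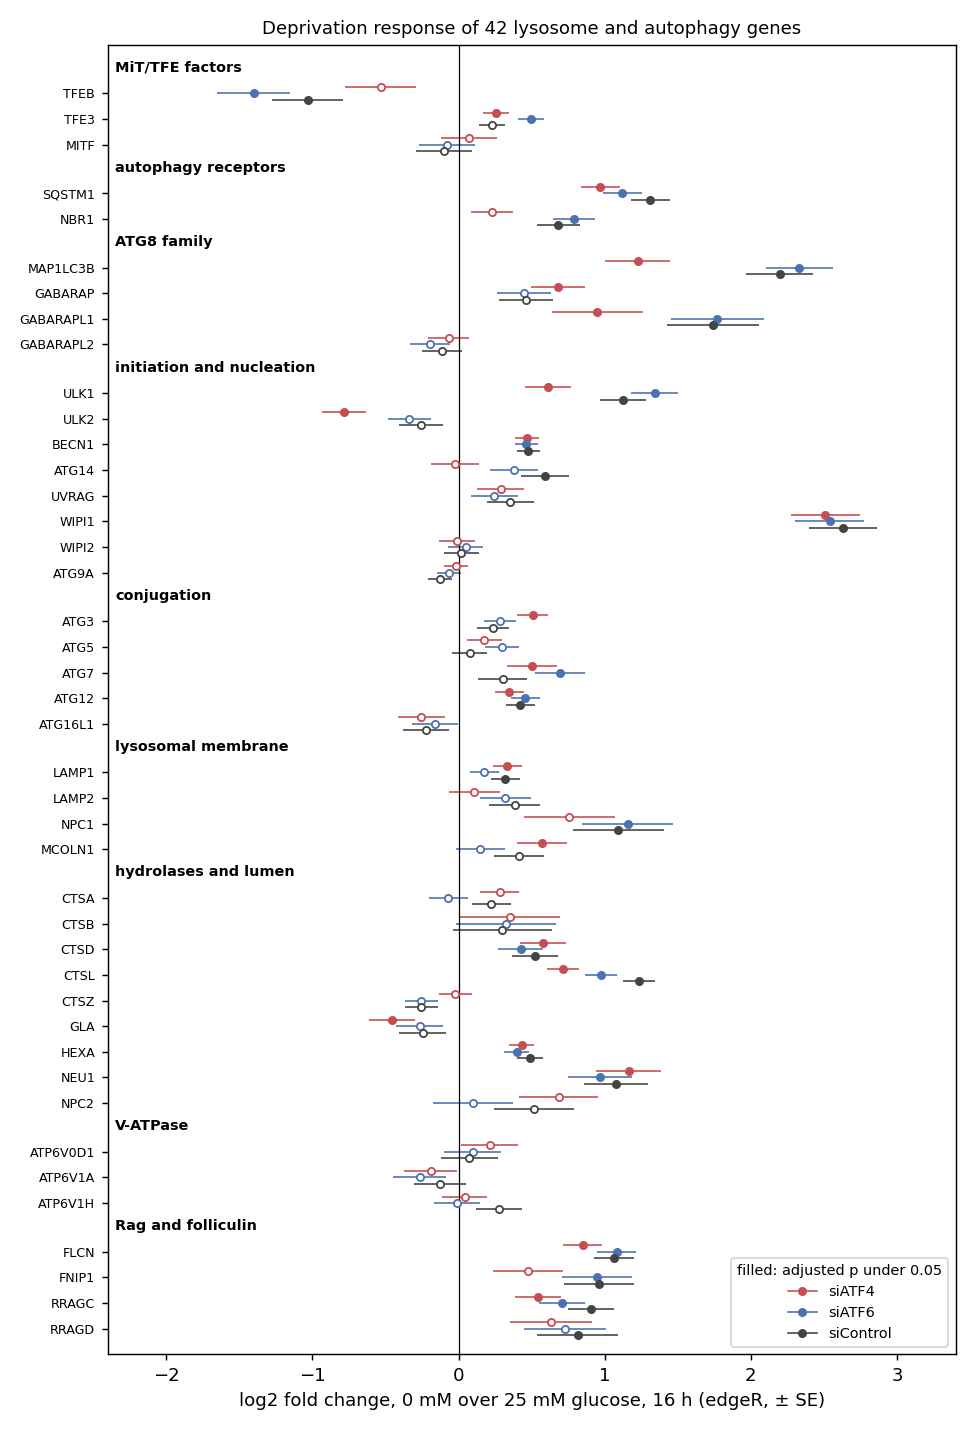
Log2 fold changes (horizontal axis, 0 mM over 25 mM glucose at 16 h) with their standard errors for the 42 members in siATF4, siATF6 and siControl cells, ordered by role. WIPI1 lies farthest to the right in all 3 siRNAs, at 2.51 in siATF4, 2.54 in siATF6 and 2.63 in siControl cells, and TFEB lies to the left of 0.

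Among the MiT/TFE factors, TFEB had 3.03, 2.54 and 2.96 CPM in the 0 mM libraries, against 5.75, 6.49 and 5.23 CPM in 25 mM (siControl, 16 h). The groups did not overlap, and each 0 mM value was lower than each 25 mM value (log2 fold change -1.03 ± 0.25 SE, edgeR adjusted p = 0.00476). TFE3 had 155, 137 and 149 CPM in 0 mM and 134, 119 and 123 CPM in 25 mM, and MITF had 17.7, 16.4 and 15.6 CPM in 0 mM and 20.1, 17.1 and 16.0 CPM in 25 mM. TFE3 was above its 25 mM values in each 0 mM library, but its log2 fold change of 0.23 ± 0.090 missed the threshold (adjusted p = 0.0673, edgeR). It passed in DESeq2 and in a fit of these 6 libraries alone. MITF overlapped between the groups and differed by -0.10 ± 0.19, which did not pass the test. TFE3 was the most abundant of the 3 by CPM per kilobase of effective length in these cells, at 49.4 in 0 mM and 42.1 in 25 mM. TFEB was the least abundant of the 42 members on that scale, at 1.48 in 0 mM and 3.04 in 25 mM.

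Both autophagy receptors rose. SQSTM1 (p62; chromosome 5, 179806398 to 179838078, plus strand, GRCh38), which links ubiquitinated cargo to ATG8 proteins, had 3983, 3155 and 3133 CPM in 0 mM, against 1457, 1365 and 1314 CPM in 25 mM (siControl, 16 h). Each deprived library stood far above each fed one, and the log2 fold change was 1.31 ± 0.13 (edgeR adjusted p = 2.61e-06). NBR1, a receptor with a related domain plan, averaged 148 ± 2.99 CPM in 0 mM and 92.2 ± 2.79 CPM in 25 mM (SD, n = 3 each), a log2 fold change of 0.68. SQSTM1 was the most abundant member per kilobase in both media, at 1746 CPM per kilobase in 0 mM and 703 in 25 mM.

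The ATG8 family split. MAP1LC3B (LC3B, the usual marker of autophagosomes; chromosome 16, 87383953 to 87404779, plus strand) had 439, 244 and 250.2 CPM in 0 mM, against 77.8, 61.7 and 63.9 CPM in 25 mM (siControl, 16 h). Its relative GABARAPL1 had 81.5, 45.6 and 49.0 CPM in 0 mM, against 21.9, 15.2 and 15.6 CPM in 25 mM. Neither gene overlapped between the groups, and in both the 0 mM library of replicate 1 stood well above the other two. The log2 fold changes were 2.20 ± 0.23 for MAP1LC3B (edgeR adjusted p = 3.43e-06) and 1.74 ± 0.32 for GABARAPL1 (adjusted p = 0.000605). GABARAP averaged 212 ± 10.9 CPM in 0 mM and 154 ± 8.19 CPM in 25 mM, and missed the threshold at 0.46 (adjusted p = 0.0744). GABARAPL2 averaged 43.5 ± 3.90 CPM in 0 mM and 47.0 ± 1.92 CPM in 25 mM, a log2 fold change of -0.11 that did not pass either. The near-identical copy MAP1LC3B2 stood at 0.537 to 4.12 CPM over the 18 libraries of 16 h, where MAP1LC3B stood at 60.6 to 439.9 CPM, and the copy GABARAPL3 was at 0 counts.

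Of the 8 initiation and nucleation genes, 4 rose. WIPI1 (chromosome 17, 68420948 to 68457513, minus strand), which binds phosphoinositides on the growing membrane, had 77.7, 61.4 and 67.4 CPM in 0 mM, against 13.5, 9.23 and 10.6 CPM in 25 mM (siControl, 16 h). ULK1, the kinase that starts autophagy (chromosome 12, 131894622 to 131923150, plus strand), had 258, 299 and 336 CPM in 0 mM, against 126, 139 and 145 CPM in 25 mM. In both genes the groups were far apart. The log2 fold changes were 2.63 ± 0.24 for WIPI1 (edgeR adjusted p = 7.03e-07) and 1.13 ± 0.16 for ULK1 (adjusted p = 6.6e-05). BECN1, the core of the lipid kinase complex, and ATG14, the subunit that directs this complex to autophagy, rose by 0.48 and 0.59, the ATG14 call being lost without the 25 mM replicate 2 (0.54). The paralogues of the genes that rose most gave no call. ULK2 had 32.0, 34.2 and 35.6 CPM in 0 mM and 39.7, 41.3 and 40.5 CPM in 25 mM, each deprived value below each fed one (-0.25, adjusted p = 0.226), and WIPI2 differed by 0.020. UVRAG, the subunit that competes with ATG14 for BECN1, differed by 0.35 and ATG9A, the membrane-spanning protein of the seed vesicles, by -0.13, neither past the test. WIPI1 shares 28.1% of its exon length with ARSG on the opposite strand, and per the labels the library protocol was not stranded. ARSG was itself at a mean of 6.09 CPM in 0 mM and 2.21 CPM in 25 mM, and its part in the WIPI1 value was not tested.

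In the conjugation machinery, which couples ATG8 proteins to lipid, ATG12 alone of 5 members rose, by 0.42 ± 0.099. ATG3 and ATG7, the E2-like and E1-like enzymes, differed by 0.24 and 0.30, and ATG5 and ATG16L1, which form the E3-like complex with ATG12, by 0.076 and -0.22. None of these 4 passed the test in siControl cells.

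Among the lysosomal membrane proteins, NPC1 and LAMP1 rose. NPC1, which exports cholesterol from the lysosome, had 244, 137 and 157 CPM in 0 mM, against 111, 71.9 and 70.1 CPM in 25 mM (siControl, 16 h). Its groups did not overlap, but replicate 1 was the highest library in each of them. The log2 fold change was 1.09 ± 0.31 (edgeR adjusted p = 0.0147), and it missed the threshold without the 0 mM replicate 1 (0.80), without the 25 mM replicate 2 (0.99) and without the 25 mM replicate 3 (0.97). LAMP1, an abundant glycoprotein of the lysosomal membrane, rose by 0.32, a call lost without the same 3 libraries (0.22, 0.32 and 0.28). LAMP2 and the calcium channel MCOLN1 differed by 0.39 and 0.41 without passing.

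Of the 9 hydrolases and luminal proteins, CTSL, NEU1, CTSD and HEXA rose. CTSL, a cysteine protease (chromosome 9, 87726109 to 87731469, plus strand), had 909, 814 and 880.0 CPM in 0 mM, against 368, 386 and 351 CPM in 25 mM (siControl, 16 h). NEU1, the lysosomal sialidase, had 81.9, 48.4 and 57.0 CPM in 0 mM, against 34.2, 26.6 and 28.0 CPM in 25 mM. The groups were separate in both, with log2 fold changes of 1.24 ± 0.11 for CTSL (edgeR adjusted p = 8.11e-07) and 1.08 ± 0.22 for NEU1 (adjusted p = 0.00151). The aspartic protease CTSD and the hexosaminidase subunit HEXA rose by 0.52 and 0.49. The CTSD call was lost without the 0 mM replicate 1 and without any 1 of the 25 mM replicates, at 0.50 to 0.53. CTSB, CTSA, CTSZ, GLA and NPC2 ranged between -0.26 (CTSZ) and 0.52 (NPC2) and did not pass. CTSB varied between libraries more than the others, averaging 507 ± 188 CPM in 0 mM and 411 ± 106 CPM in 25 mM (SD, n = 3 each). CTSA, the carboxypeptidase that forms a complex with NEU1, averaged 119.9 ± 15.3 CPM in 0 mM and 103 ± 10.4 CPM in 25 mM.

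None of the 3 V-ATPase subunits, which build the proton pump that acidifies the lysosome, passed the test in siControl cells at 16 h. Log2 fold changes were 0.074 for ATP6V0D1, -0.13 for ATP6V1A and 0.28 for ATP6V1H, with 0 of 3 at an unadjusted p under 0.05 in edgeR and 0 of 3 past 0.05 in DESeq2.

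All 4 genes of the Rag and folliculin group rose. FLCN, which with FNIP1 acts on the Rag GTPases RRAGC and RRAGD to direct mTORC1 towards TFEB and TFE3, had 105, 85.3 and 93.1 CPM in 0 mM, against 41.0, 47.0 and 47.4 CPM in 25 mM (siControl, 16 h). Its groups did not overlap, and the log2 fold change was 1.06 ± 0.13 (edgeR adjusted p = 2.37e-05). FNIP1 rose by 0.96, RRAGC by 0.91 and RRAGD by 0.82. RRAGD was near the threshold (adjusted p = 0.0367), averaging 17.6 ± 5.11 CPM in 0 mM and 10.0 ± 2.66 CPM in 25 mM. Its call was lost without the 0 mM replicate 1 (0.56) or 3 (0.91) and without the 25 mM replicate 2 (0.64) or 3 (0.81).

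**Figure D2:**
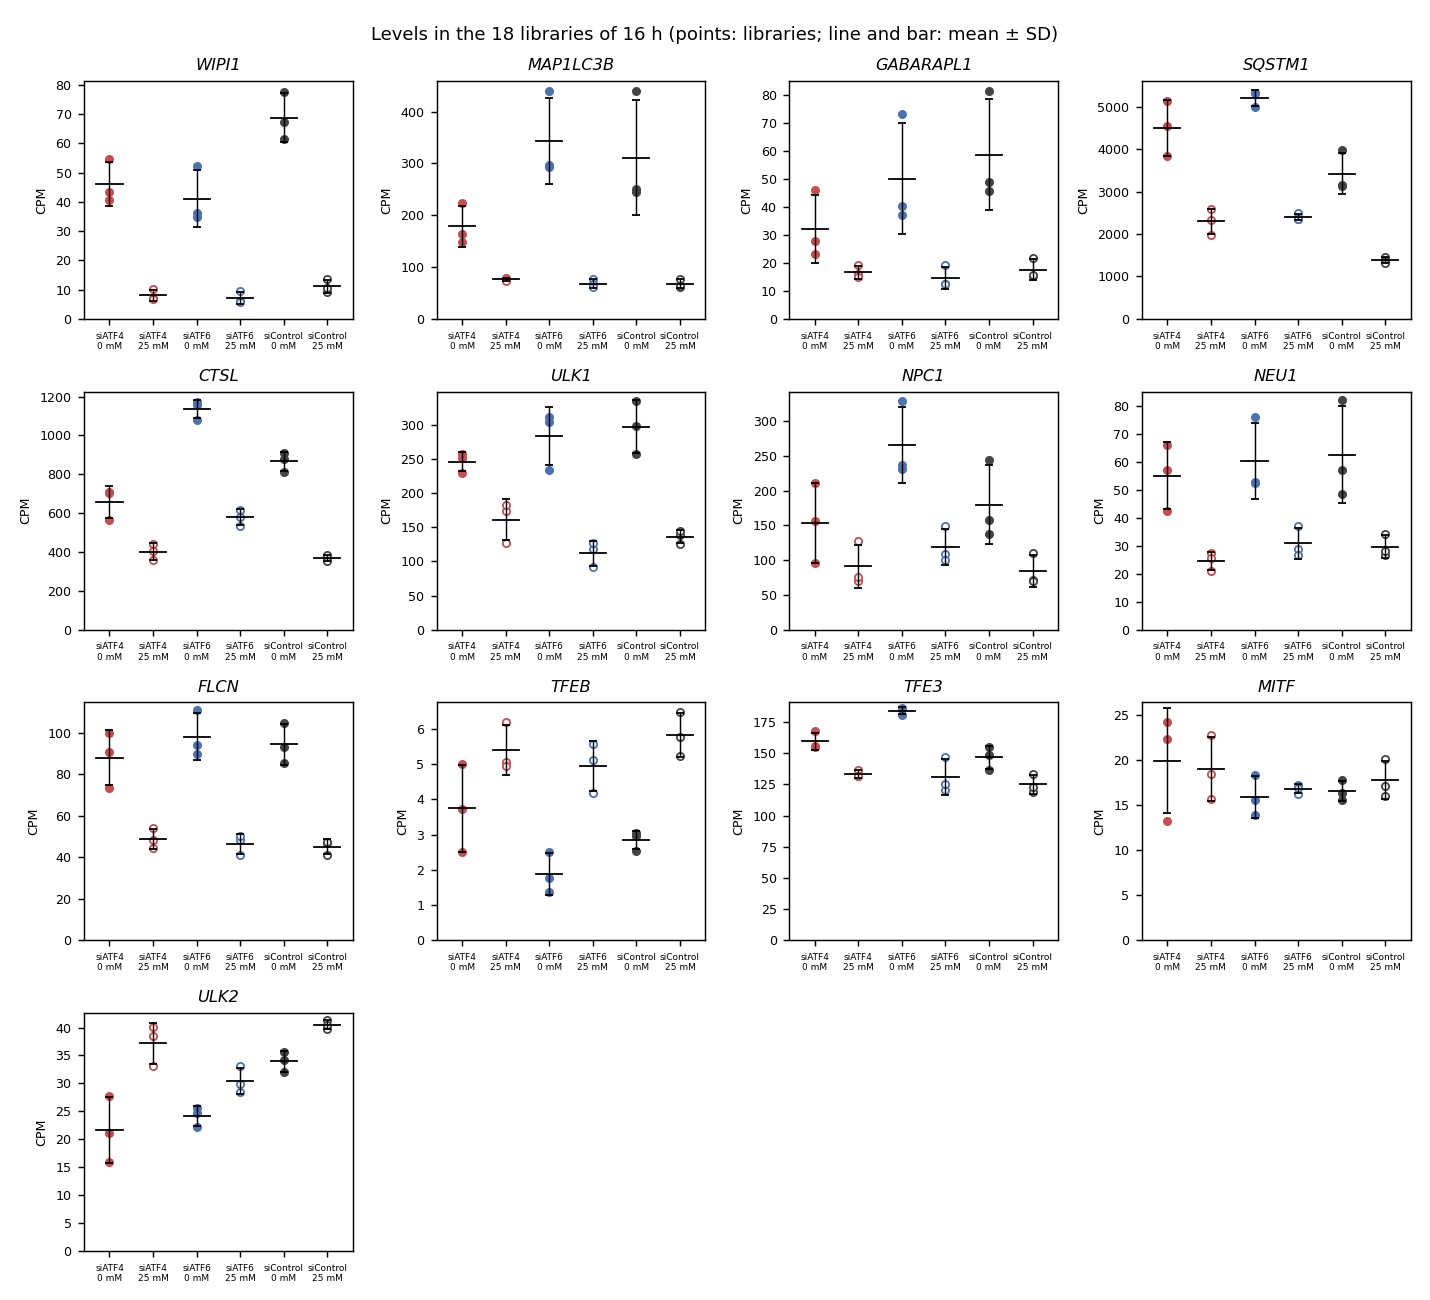
CPM of the members given in full, on a linear axis, in each library of 16 h (points). Lines are group means and bars their SD, with 0 mM beside 25 mM within siATF4, siATF6 and siControl. In siControl cells WIPI1 lies at 61.4 to 77.7 CPM in 0 mM and 9.23 to 13.5 CPM in 25 mM, and TFEB and ULK2 have each 0 mM point below each 25 mM point.

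Promoter sequence was read for the members because several of them are textbook targets of TFEB and TFE3 through the CLEAR element. RefSeq windows of 300 bases (250 before to 50 after the start, GRCh38.p14) were in the table for 35 of the 42 members. For each gene 1 window was searched, the first listed, so other starts of a gene were not read. The palindromic core TCACGTGA, searched on both strands, was in 1.04% of 27305 windows and in 5 of the 35 member windows (ATG3, ATP6V0D1, CTSA, LAMP1 and MCOLN1). The shorter E-box CACGTG, which lies inside that core, was in 7.43% of all windows and in 10 of 35 member windows. The other 5 were those of ATG14, CTSD, FNIP1, NEU1 and RRAGC. The windows below are shown 5′ to 3′ on the strand of the gene, with the core or, where there is none, the E-box in capitals. Members with the full core can thus be set beside members with an E-box but no full core. In CTSD, RRAGC, FNIP1 and ATG14 the E-box shown is followed by the A of the core, and in NEU1 it is preceded by its T. They lie at chr13:113297179-113297238 (plus, LAMP1), chr19:7522556-7522620 (plus, MCOLN1), chr20:45891275-45891334 (plus, CTSA), chr16:67481184-67481243 (minus, ATP6V0D1), chr6:31862914-31862973 (minus, NEU1), chr11:1763941-1764000 (minus, CTSD), chr1:38859851-38859910 (minus, RRAGC), chr5:131797159-131797218 (minus, FNIP1) and chr14:55411831-55411890 (minus, ATG14).
LAMP1: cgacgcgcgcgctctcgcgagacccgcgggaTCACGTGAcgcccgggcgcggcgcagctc
MCOLN1: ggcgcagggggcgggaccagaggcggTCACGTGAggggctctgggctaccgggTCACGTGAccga
CTSA: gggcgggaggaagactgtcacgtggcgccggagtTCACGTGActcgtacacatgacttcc
ATP6V0D1: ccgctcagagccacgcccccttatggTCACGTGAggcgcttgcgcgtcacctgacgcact
NEU1: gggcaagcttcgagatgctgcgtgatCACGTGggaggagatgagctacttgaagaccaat
CTSD: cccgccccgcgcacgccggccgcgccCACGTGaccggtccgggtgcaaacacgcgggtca
RRAGC: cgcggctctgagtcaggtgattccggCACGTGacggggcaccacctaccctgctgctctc
FNIP1: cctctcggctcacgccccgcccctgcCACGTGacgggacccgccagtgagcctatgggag
ATG14: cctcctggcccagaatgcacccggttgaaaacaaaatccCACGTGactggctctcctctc
Of the 5 members with the core, LAMP1 rose in siControl cells at 16 h and the other 4 did not pass the test, with a median log2 fold change of 0.24. Of the 30 members without it, 16 rose and 1 fell (median 0.50). Of the 10 members with the E-box, 6 rose and 0 fell (median 0.47), and of the 25 without it, 11 rose and 1 fell (median 0.42). WIPI1, MAP1LC3B, GABARAPL1, SQSTM1, CTSL and ULK1 have neither match in their windows. The motif TGATGNAA, read by ATF4 with C/EBP partners, was in 3.67% of all windows, and the ER stress element, read by ATF6, in 0.0806%. Neither was in a member window. The CTSA window also holds an E-box in lower case, and the LAMP1 promoter holds a second core across the start and further E-boxes upstream. A match is a description of the letters in this window and not a measured binding site.

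Deprivation was then compared within siATF4 and within siATF6 cells at 16 h. In siATF4 cells 19 of 42 members rose and 2 fell (edgeR), against 14.9% and 14.2% of all genes. The median was 0.35 over the members and -0.0074 over all genes. Without the 25 mM replicate 3 of siATF4 the count past the threshold was 11, with nothing but these 6 libraries fitted it was 5, and a fit of all 36 libraries gave 0. The 0 mM replicate 3 of siATF4 correlated least with the other libraries, the failed one aside, at a median of 0.9505. Its log2 ratio to the 25 mM library of the same number was -0.25 for NBR1, -0.33 for FNIP1 and 0.0165 for TFEB. Replicates 1 and 2 gave 0.29 and 0.58 for NBR1, 0.38 and 1.25 for FNIP1, and -0.40 and -1.16 for TFEB. For WIPI1 the 3 replicates gave 2.35, 2.44 and 2.56. In siATF6 cells 18 rose and 1 fell, against 15.6% and 17.9% of all genes, with a median of 0.35 over the members and -0.025 over all genes, and a fit of all 36 libraries gave 4. In siATF4 cells 16 members lay above and 2 below without overlap, against 15.9% and 17.5% of all genes. In siATF6 cells 25 lay above and 5 below, against 25.8% and 28.7%.

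WIPI1 rose under each siRNA. It had 54.6, 40.6 and 43.3 CPM in 0 mM, against 10.3, 7.05 and 6.94 CPM in 25 mM in siATF4 cells (2.51 ± 0.24). In siATF6 cells it had 52.4, 36.4 and 34.7 CPM in 0 mM, against 9.38, 6.21 and 5.67 CPM in 25 mM (2.54 ± 0.24). The deprived and fed libraries stood apart under both siRNAs.

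For MAP1LC3B the siATF4 libraries were lower in 0 mM than those of the other siRNAs. It had 223, 148 and 164 CPM in 0 mM, against 78.8, 76.1 and 73.8 CPM in 25 mM in siATF4 cells, and the log2 fold change was 1.23 ± 0.22. In siATF6 cells it had 439.9, 293 and 297 CPM in 0 mM, against 76.7, 67.2 and 60.6 CPM in 25 mM, and the log2 fold change was 2.33 ± 0.23. GABARAPL1 had 46.1, 27.7 and 23.1 CPM in 0 mM, against 19.3, 16.0 and 14.8 CPM in 25 mM in siATF4 cells (0.95 ± 0.31). It had 73.1, 40.4 and 37.0 CPM in 0 mM, against 19.1, 12.6 and 12.3 CPM in 25 mM in siATF6 cells (1.77 ± 0.32). Both genes rose under each siRNA, and the GABARAPL1 call in siATF4 cells was lost without the 0 mM replicate 1, at 0.60, and without any 1 of the 25 mM replicates, at 0.87 to 1.07.

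ULK1 had 230.2, 258 and 252 CPM in 0 mM, against 127, 174 and 183 CPM in 25 mM in siATF4 cells, and rose by 0.61 ± 0.16. In siATF6 cells it had 235, 305 and 312 CPM in 0 mM, against 91.8, 118 and 127 CPM in 25 mM, and rose by 1.34 ± 0.16. ULK2 went the other way. It had 21.1, 27.8 and 16.0 CPM in 0 mM, against 40.1, 33.1 and 38.4 CPM in 25 mM in siATF4 cells, where it fell by 0.78 ± 0.15 on the log2 scale (edgeR adjusted p = 0.00123). In siATF6 cells it had 24.7, 25.5 and 22.2 CPM in 0 mM and 28.4, 29.9 and 33.1 CPM in 25 mM, a difference of -0.34 that missed the threshold.

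SQSTM1, CTSL, FLCN, NEU1 and NPC1 all rose in siATF6 cells, and all but NPC1 rose in siATF4 cells. SQSTM1 had 4544, 3832 and 5145 CPM in 0 mM, against 1987, 2588 and 2323 CPM in 25 mM in siATF4 cells (0.97). It had 5315, 4992 and 5329 CPM in 0 mM, against 2360.2, 2486 and 2354 CPM in 25 mM in siATF6 cells (1.12). The deprived libraries were the higher ones in each case. CTSL had 707, 562 and 704 CPM in 0 mM, against 402, 443 and 356 CPM in 25 mM in siATF4 cells (0.72). It had 1082, 1171 and 1156 CPM in 0 mM, against 582, 618 and 536 CPM in 25 mM in siATF6 cells (0.97). Again no deprived library fell into the range of the fed ones. FLCN averaged 88.0 ± 13.4 CPM in 0 mM and 48.9 ± 4.75 CPM in 25 mM in siATF4 cells (0.85), and 98.1 ± 11.4 CPM in 0 mM and 46.4 ± 4.85 CPM in 25 mM in siATF6 cells (1.08). NEU1 averaged 54.9 ± 11.9 CPM in 0 mM and 24.5 ± 3.20 CPM in 25 mM in siATF4 cells (1.16), and 60.2 ± 13.6 CPM in 0 mM and 30.8 ± 5.51 CPM in 25 mM in siATF6 cells (0.97). NPC1 had 210.2, 156 and 95.2 CPM in 0 mM and 127, 69.7 and 76.3 CPM in 25 mM in siATF4 cells. These groups overlapped, and the difference of 0.76 missed the threshold, whereas NPC1 rose by 1.16 in siATF6 cells.

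TFEB fell in siATF6 cells, with 2.52, 1.76 and 1.36 CPM in 0 mM, against 5.57, 4.17 and 5.12 CPM in 25 mM (-1.40 ± 0.25). In siATF4 cells it had 3.71, 2.51 and 5.00 CPM in 0 mM and 5.04, 6.20 and 4.93 CPM in 25 mM. These groups overlapped through the 0 mM replicate 3, and the difference of -0.53 ± 0.24 missed the threshold. TFE3 passed it in both knockdowns, by 0.26 in siATF4 cells (edgeR adjusted p = 0.0412) and 0.49 in siATF6 cells (adjusted p = 0.00051). The siATF4 value lost its call in 8 of 13 alternatives. MITF differed by 0.072 in siATF4 and -0.078 in siATF6 cells, not past the test.

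Among the other members, BECN1, HEXA, ATG12, RRAGC and CTSD rose in all 3 siRNAs. The CTSD call in siATF6 cells was lost in each of the 6 fits that left out 1 library, at 0.34 to 0.47, and that in siATF4 cells without the 25 mM replicate 1 (0.48) or 3 (0.53). In siATF4 cells the RRAGC call was lost without the 0 mM replicate 1 (0.38) or the 25 mM replicate 3 (0.47), and the ATG12 call without the 25 mM replicate 3 (0.34). BECN1 rose by 0.47 in siATF4, 0.46 in siATF6 and 0.48 in siControl cells. BECN1 shares 17.1% of its exon length with CNTD1 and PSME3 on the opposite strand. PSME3 averaged 224 CPM in 0 mM and 331.5 CPM in 25 mM in siControl cells. HEXA shares 16.3% with AC009690.2 and other transcripts, AC009690.2 averaging 2.73 CPM in 0 mM and 1.03 CPM in 25 mM. Of all members, 11 share over 10% of their exon length with other genes. The part of these partners in the BECN1 and HEXA values was not tested. NBR1 rose by 0.79 in siATF6 and 0.68 in siControl cells, and gave 0.23 in siATF4 cells, which did not pass. FNIP1 rose by 0.94 in siATF6 and 0.96 in siControl cells, and gave 0.48 in siATF4 cells, not past the test. ATG7 rose by 0.50 in siATF4 and 0.70 in siATF6 cells, and its siATF4 call was lost without the 0 mM replicate 1 (0.43) or 3 (0.41) and without the 25 mM replicate 2 (0.49) or 3 (0.39). ATG7 shares 18.1% of its exon length with VGLL4 on the opposite strand. VGLL4 averaged 65.8 CPM in 0 mM and 39.8 CPM in 25 mM in siControl cells. Its part in the ATG7 values was not tested. GABARAP, ATG3 and MCOLN1 rose and GLA, the lysosomal galactosidase, fell past the threshold in siATF4 cells, at 0.68, 0.51, 0.57 and -0.46. The GLA call was lost without any 1 library other than the 0 mM replicate 3, at -0.49 to -0.32. The MCOLN1 call was lost without the 0 mM replicate 3 (0.36) or the 25 mM replicate 1 (0.49) or 3 (0.52), and the GABARAP call without the 25 mM replicate 1 (0.60) or 3 (0.63). A call under 1 siRNA and not under another is not a difference between them, which the interaction tests below address.

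The interaction asks whether deprivation changed a member by another amount in a knockdown than in siControl cells. With siATF4, 0 of 42 members passed in edgeR (0.172% of all genes did), 6 had an unadjusted p under 0.05, and 0 passed in DESeq2. MAP1LC3B gave -0.97 ± 0.31 on the log2 scale (edgeR adjusted p = 0.387), GABARAPL1 -0.79 ± 0.44 (adjusted p = 0.579), CTSL -0.52 ± 0.16 (adjusted p = 0.313) and ULK1 -0.51 ± 0.22 (adjusted p = 0.528). With siATF6, 0 of 42 passed in edgeR (0% of all genes), 0 had an unadjusted p under 0.05, and 0 passed in DESeq2. Between the deprivation responses of siATF4 and siATF6 cells 0 of 42 passed in edgeR (0.355% of all genes), 4 had an unadjusted p under 0.05, and 1 passed in DESeq2 (1.71% of all genes). That 1 was MAP1LC3B, at -1.11 ± 0.31 in edgeR (adjusted p = 0.197) and -1.11 in DESeq2 (adjusted p = 0.046). These tests did not pair libraries by replicate number. With it as a block in edgeR, MAP1LC3B (-0.96, adjusted p = 0.0277) and GABARAPL1 (-0.82, adjusted p = 0.0444) passed the interaction with siATF4. MAP1LC3B (-1.11, adjusted p = 0.00912), GABARAPL1 (-0.84, adjusted p = 0.03) and ULK1 (-0.71, adjusted p = 0.0127) then passed between siATF4 and siATF6. The labels do not say that the number marks a batch.

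Each knockdown was also set against siControl within one medium at 16 h. In 0 mM, 3 of 42 members were lower in siATF4 cells and 0 were higher (edgeR), against 5.09% and 7.32% of all genes. MAP1LC3B had 223, 148 and 164 CPM in siATF4, against 439, 244 and 250.2 CPM in siControl cells (-0.80 ± 0.22, adjusted p = 0.0305). ULK2 had 21.1, 27.8 and 16.0 CPM in siATF4, against 32.0, 34.2 and 35.6 CPM in siControl cells (-0.65 ± 0.15, adjusted p = 0.015). CTSL had 707, 562 and 704 CPM in siATF4, against 909, 814 and 880.0 CPM in siControl cells (-0.40 ± 0.11, adjusted p = 0.0306). In these 3 genes each siATF4 library lay below each siControl library. The MAP1LC3B value was -0.47 and no longer past the threshold without the siControl replicate 1, the highest library. The MAP1LC3B call was also lost without siATF4 replicate 2 (-0.68) or 3 (-0.74), the CTSL call without siATF4 replicate 2 (-0.30), siControl replicate 1 (-0.36) or siControl replicate 3 (-0.40), and the ULK2 call without siControl replicate 3 (-0.62). Over all left-out libraries the count past the threshold ranged over 1 to 7. It was 7 without siATF4 replicate 2, 6 without siATF4 replicate 1 and 1 without siControl replicate 3. In DESeq2, GABARAPL1 (-0.85, adjusted p = 0.0368) and NBR1 (-0.41, adjusted p = 0.0352) were lower too. SQSTM1 (0.41, adjusted p = 0.015), ATG3 (0.35) and ATG12 (0.27) were higher in that fit. With the replicate number as a block in edgeR these genes passed in the same directions. WIPI1 (-0.58, adjusted p = 0.00162), RRAGC (-0.35), RRAGD (-0.39) and ULK1 (-0.26) were then lower as well.

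In 25 mM glucose 0 of 42 members passed between siATF4 and siControl cells in edgeR (0.0444% of all genes), 2 had an unadjusted p under 0.05, and 1 passed in DESeq2 (0.944% of all genes). That 1 was SQSTM1, which had 1987, 2588 and 2323 CPM in siATF4, against 1457, 1365 and 1314 CPM in siControl cells. Each siATF4 library was higher, at 0.74 ± 0.13 with an adjusted p of 0.0652 in edgeR, and the count was 1 without siATF4 replicate 1.

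In siATF6 cells SQSTM1 was higher in both media. The siATF4 cells shared that direction, with SQSTM1 at 0.41 in 0 mM and 0.73 in 25 mM, both past the threshold in DESeq2. Neither siATF4 value passed in the edgeR fit without a block. In 0 mM it had 5315, 4992 and 5329 CPM in siATF6, against 3983, 3155 and 3133 CPM in siControl cells (0.61 ± 0.13, edgeR adjusted p = 0.0165). It was the 1 member past the threshold there, where 1.11% of all genes were higher and 2.91% lower. In 25 mM it had 2360.2, 2486 and 2354 CPM in siATF6, against 1457, 1365 and 1314 CPM in siControl cells (0.80 ± 0.13, edgeR adjusted p = 0.0102). CTSL had 582, 618 and 536 CPM in siATF6, against 368, 386 and 351 CPM in siControl cells in that medium (0.65 ± 0.11, edgeR adjusted p = 0.0111). These 2 members were higher and 0 lower in 25 mM, against 0.189% and 0.561% of all genes, and the libraries of the groups did not overlap. In 0 mM CTSL gave 0.39 ± 0.11 with an adjusted p of 0.0612. Leaving out siATF6 replicate 2, siControl replicate 2 or siControl replicate 3 took both 25 mM calls below the threshold, with values of 0.77, 0.79 and 0.77 for SQSTM1 and 0.60, 0.69 and 0.62 for CTSL. The SQSTM1 call in 0 mM was lost without siATF6 replicate 2 (0.64) or 3 (0.59) and without siControl replicate 2 (0.55) or 3 (0.56). In DESeq2, WIPI1 (-0.72, adjusted p = 0.0259) and ULK2 (-0.47, adjusted p = 0.0316) were lower in siATF6 than siControl cells in 0 mM. ATG7, ATG9A, CTSL and TFE3 were higher there, at 0.30 to 0.53, as was SQSTM1. With the replicate number as a block in edgeR, WIPI1 was lower in 0 mM (-0.76) and in 25 mM (-0.66), past the threshold in both.

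At 6 h no member passed the test for deprivation under any siRNA with replicate 2 kept (edgeR and DESeq2), and neither did any other gene in edgeR (0% of 18355). The numbers of members at an unadjusted p under 0.05 were 4 in siATF4, 0 in siATF6 and 0 in siControl cells. Groups did not overlap in 11 members above and 1 below in siATF4 cells, against 12.5% and 13.5% of all genes, and in 0 members in siATF6 and siControl cells (2.58% and 3.05% of all genes either way). Of the 19 members that rose at 16 h in siControl cells, 19 were higher in 0 mM in replicate 1 of siControl at 6 h, 1 in replicate 2 and 16 in replicate 3. In siATF6 cells these counts were 18, 2 and 16, and in siATF4 cells 16 in replicate 1 and 17 in replicate 2.

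**Figure D3:**
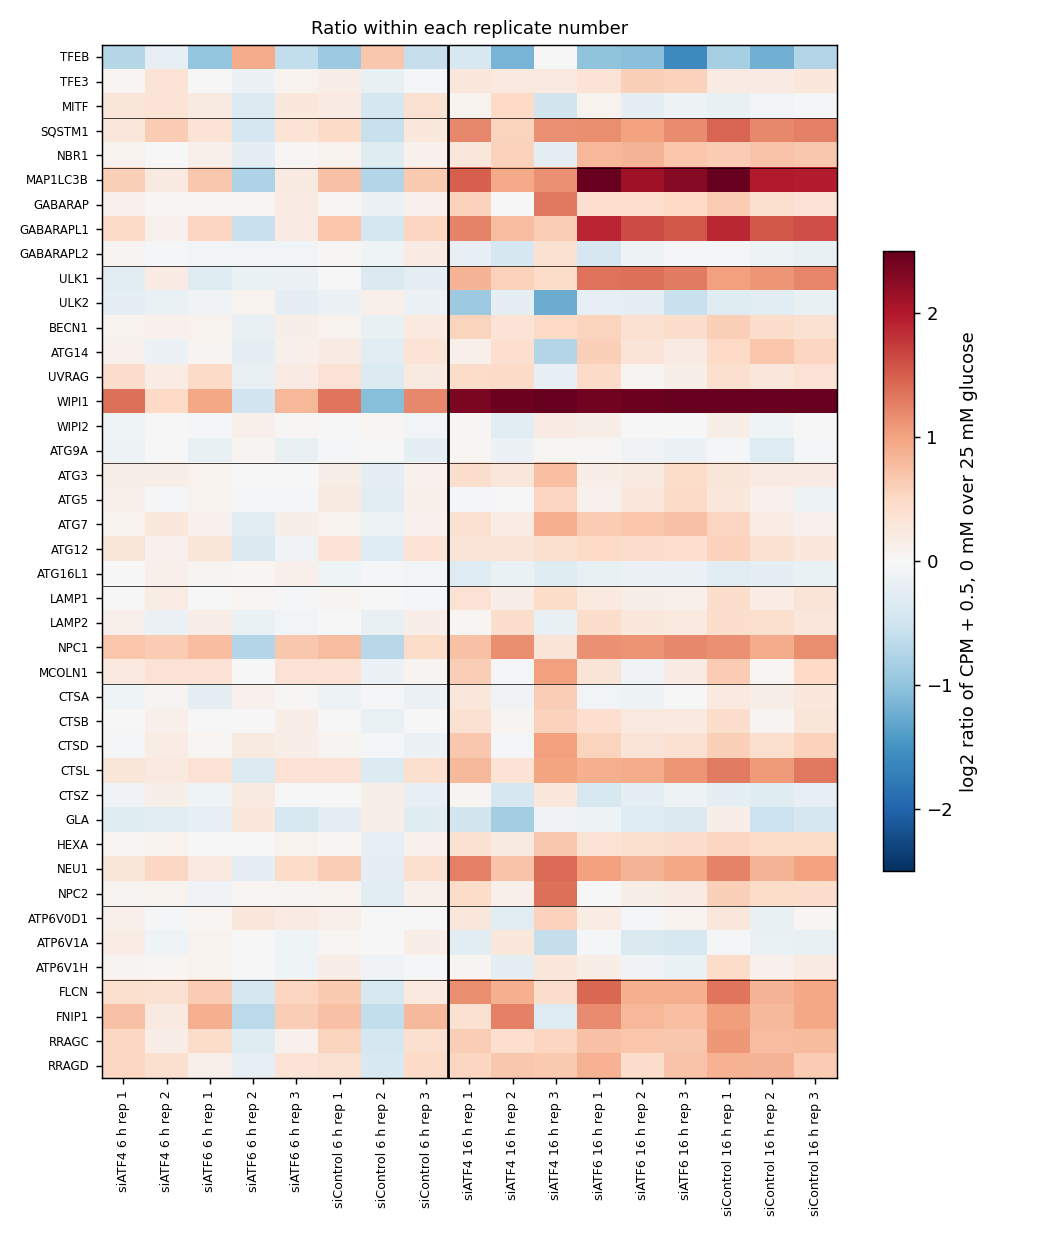
Log2 ratio of 0 mM over 25 mM (colour) for the 42 members (rows, ordered by role), by time, siRNA and replicate (columns). Medians quoted here are over the 19 members that rose at 16 h in siControl cells. Those of replicate 2 at 6 h are -0.305 in siATF6 and -0.366 in siControl cells, while all others lie above 0.

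Without replicate 2 at 6 h, 2 members rose under each siRNA. That leaves siATF4 in 0 mM with 1 library, which is assumed to vary like the other groups. Replicate 2 was left out for the direction of its response in siControl and siATF6 cells. In siATF4 cells it was left out too, though it did not go against the labels. The adjusted p-values of fits without it, here and below, do not account for that choice. The shares of all genes that rose were 0.862% in siATF4, 1.06% in siATF6 and 1.9% in siControl cells. FNIP1 passed under each siRNA, by 0.74 ± 0.11 in siATF4 (adjusted p = 0.0161), 0.77 ± 0.090 in siATF6 (adjusted p = 0.00837) and 0.77 ± 0.090 in siControl cells (adjusted p = 0.00386, all edgeR). WIPI1 passed in siATF4 (1.56 ± 0.27) and in siControl cells (1.30 ± 0.23), and FLCN in siATF6 cells (0.61 ± 0.11). FNIP1 had 58.7, 31.8 and 60.03 CPM in 0 mM and 35.2, 48.9 and 33.9 CPM in 25 mM in siControl cells at 6 h, in the order of replicates 1 to 3. Replicate 2 is the lowest of the 0 mM libraries and the highest of the 25 mM libraries. WIPI1 had 42.3, 14.97 and 36.7 CPM in 0 mM and 16.4, 31.8 and 15.6 CPM in 25 mM, with replicate 2 placed in the same way. These genes are named because so few passed, after their values were seen.

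Knockdowns were compared at 6 h over both media. In siATF4 cells 0 of 42 members passed in edgeR (0.191% of all genes), 3 had an unadjusted p under 0.05 and 0 passed in DESeq2. In siATF6 cells WIPI1 was lower, at -1.15 ± 0.31 (edgeR adjusted p = 0.0414), and MCOLN1 higher, at 0.32 ± 0.087 (adjusted p = 0.0406), against 3.98% and 3.3% of all genes. WIPI1 averaged 14.1 ± 6.90 CPM in siATF6 and 31.3 ± 14.4 CPM in siControl cells in 0 mM, and 9.53 ± 1.77 CPM in siATF6 and 21.3 ± 9.12 CPM in siControl cells in 25 mM (SD, n = 3 each). Both values lay near the threshold. The WIPI1 call was lost in 9 of the 12 fits that left out 1 library, where its value lay between -1.24 and -0.95, and the MCOLN1 call in 9 of 12, at 0.24 to 0.34. Without replicate 2, WIPI1 was at -0.997 (adjusted p = 0.0216), MCOLN1 no longer passed (0.23), and CTSL (0.62), ULK2 (-0.30) and FNIP1 (-0.39) did, against 0.989% of all genes higher and 1.87% lower.

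The deprivation response of siControl cells was larger at 16 h than at 6 h for 8 of 42 members and smaller for 0 (edgeR over 35 libraries), against 4.09% and 4.53% of all genes. The differences between the log2 fold changes of 16 h and 6 h were 2.08 ± 0.51 for WIPI1, 1.87 ± 0.42 for MAP1LC3B, 1.32 ± 0.24 for ULK1, 1.18 ± 0.27 for SQSTM1 and 1.05 ± 0.29 for CTSL. FLCN, NBR1 and BECN1 followed at 0.87, 0.71 and 0.44. These values moved with replicate 2 of 6 h. Without it, WIPI1 was at 1.33, MAP1LC3B at 1.501, ULK1 at 1.26, SQSTM1 at 0.94 and CTSL at 0.86, all 5 still past the threshold (2.16% of all genes passed upward), whereas FLCN (0.61, adjusted p = 0.0836), NBR1 (0.59, adjusted p = 0.103) and BECN1 (0.32, adjusted p = 0.125) were not. FNIP1, which had passed at 6 h without replicate 2, differed between the times by 0.19 ± 0.32 in that fit. With 1 library left out, the NBR1 call was lost in 10 of 12 fits (0.57 to 0.73) and the FLCN call in 4, those without replicate 1 of either medium at 16 h (0.79 in 0 mM, 0.81 in 25 mM) or replicate 2 of either at 6 h (0.68 in 0 mM, 0.80 in 25 mM). The BECN1 call was lost without either of the last 2 (0.41 and 0.36), and the CTSL call without the 0 mM replicate 2 of 6 h (0.83). The count ranged over 4 to 12. It was 4 without the 0 mM replicate 2 and 5 without the 25 mM replicate 2 of siControl at 6 h.

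Levels between members can be compared only per length. In siControl cells at 16 h the 5 most abundant members per kilobase were SQSTM1, CTSL, GABARAP, CTSD and CTSB in both media, at 1746, 798, 433, 406 and 313 CPM per kilobase in 0 mM. The values of GABARAP and CTSD rest on genes that share 55.7% and 52.7% of their exon length with other annotated transcripts. WIPI1 moved to rank 19 of 42 in 0 mM, against rank 36 in 25 mM, at 54.3 CPM per kilobase in 0 mM and 8.75 in 25 mM. MAP1LC3B moved to rank 6 in 0 mM, against rank 17 in 25 mM, and in 0 mM it lay above GABARAPL2, which was at 62.9 in 0 mM and 67.9 in 25 mM.

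**Figure D4:**
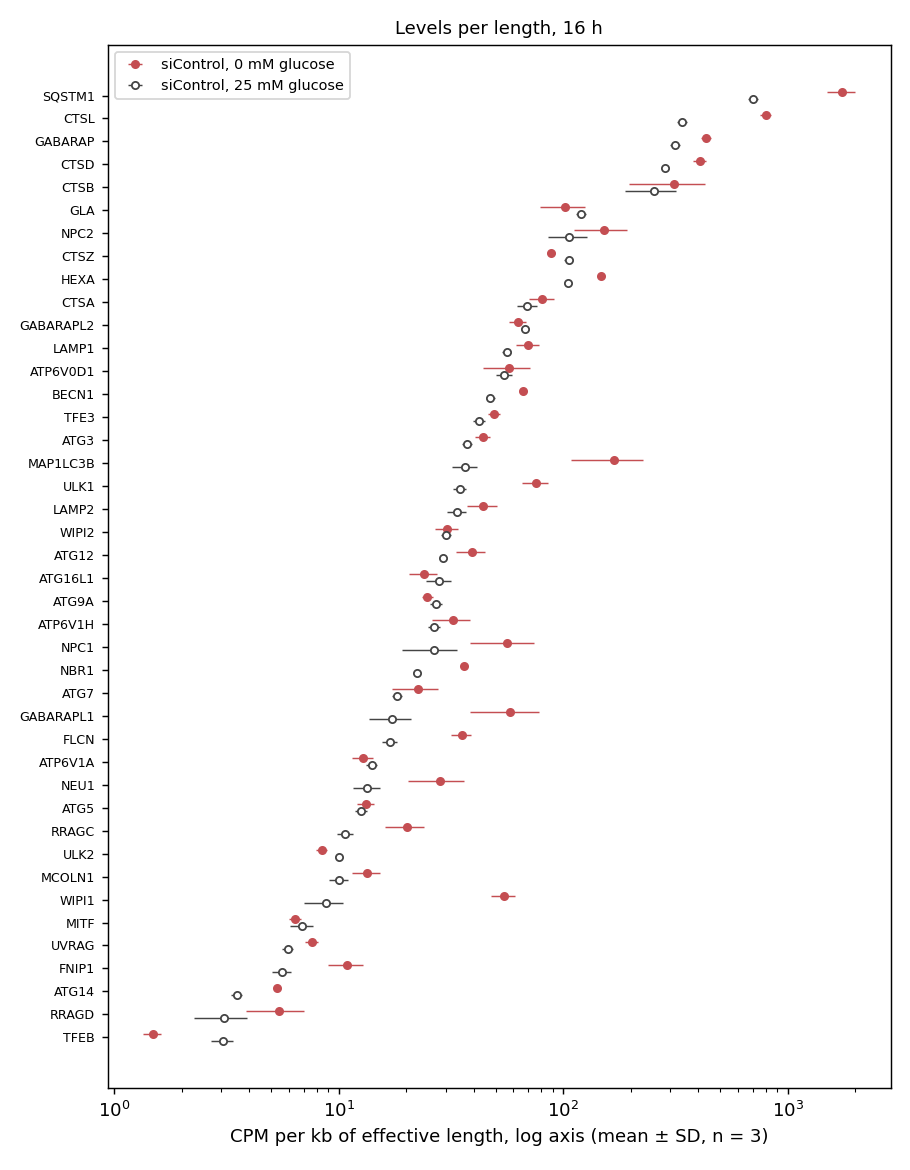
CPM per kilobase of effective length on a log axis for the 42 members in siControl cells at 16 h, 0 mM and 25 mM, as means with SD (n = 3 each). SQSTM1 is at the top and TFEB at the bottom in both media.

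Other genes of the pathway were followed through lists that leave out the 42 members, in siControl cells at 16 h and by edgeR. The counts stand against 14.6% of all genes that rose and 14.5% that fell. Of 36 further hydrolases and activators, 11 rose and 5 fell. PSAP, the precursor of the saposins, rose by 0.96, the peptidase TPP1 by 0.94 and the glucosaminidase NAGLU by 0.69, while the protease CTSV fell, at -0.67. Of 17 further membrane proteins 7 rose and 2 fell. LAMP3 rose by 4.90 ± 0.46, the cystine exporter CTNS by 1.01 and the chloride exchanger CLCN7 by 0.77, and HGSNAT and LAPTM4B fell, at -0.66 and -0.35. Of 15 further V-ATPase subunits 7 rose and 1 fell, among them ATP6V0A1 at 0.66, ATP6V0A2 at 0.73 and ATP6V1C2 at 1.05, and ATP6V0E2 at -0.56.

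Of 29 further autophagy core genes 9 rose and 1 fell. The scramblase TMEM41B rose by 1.73, WDR45, a relative of WIPI1, by 1.39 and the ULK1 partner ATG13 by 1.14, while PIK3R4, a subunit of the BECN1 complex, fell at -0.78. Of 10 further selective receptors 4 rose and 0 fell, with the mitophagy receptor BNIP3L at 1.39, TAX1BP1 at 0.82 and CALCOCO2 at 0.68. Of 7 receptors for the ER, 3 rose and 0 fell, with CCPG1 at 1.95, CALCOCO1 at 0.88 and RTN3 at 0.30. Of 21 genes of the lysosomal mTORC1 machinery 3 rose and 2 fell, no larger shares than among all genes, the highest being LAMTOR3, a subunit of the Ragulator that anchors the Rag GTPases, at 0.65. RPTOR, the defining subunit of mTORC1, fell at -0.55 and CASTOR2, a relative of the arginine sensor CASTOR1, at -1.19. The medians of the lists lay between -0.062 (mTORC1 machinery) and 0.32 (autophagy core), beside 0.0093 over all genes.

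Several of these genes were lower in siATF4 than in siControl cells in 0 mM at 16 h. LAMP3 differed by -2.52 ± 0.40 (edgeR adjusted p = 0.00212), CCPG1 by -1.21 ± 0.16 (adjusted p = 0.000411), TMEM41B by -0.71, CALCOCO2 by -0.59, CALCOCO1 by -0.60 and RTN3 by -0.52. Of the 7 ER receptors 3 were lower and 0 higher, against 5.09% and 7.32% of all genes. RTN3 was also lower in siATF6 than in siControl cells, by -0.37 in 0 mM and -0.41 in 25 mM. In the interaction of deprivation with siATF4, LAMP3 was at -2.28 ± 0.63 and did not pass (adjusted p = 0.24).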

How the data were processed

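The authors deposited 1 table of expected counts per gene. Per the submitters' processing notes the tools named are fastp, STAR and RSEM with GRCh38, without versions or annotation release. Per the labels, poly(A) RNA was sequenced by a protocol without strand, in pairs of 150 bases. Columns were matched to libraries through the labels, and all were used.

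The deposited values were rounded and tested with edgeR 4.0.16 in R 4.3.3 (filterByExpr by group with minimum count 10 and minimum total 15, TMM, robust quasi-likelihood F test, 1 mean per group, Benjamini-Hochberg over all genes at 0.05). Fits used 18 libraries of 16 h, 17 of 6 h, or 35 of both times, so the low-count library is in none of them. The 16 comparisons cover deprivation within each siRNA and time, knockdowns against siControl, and interactions. CPM come from the TMM factors of the fit concerned, so those of 6 h and 16 h are on separate scales. Standard errors are the log2 fold change over the root of F. P-values rest on the spread between cultures of 1 line.

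The members, the further lists and the markers were chosen with earlier results of these data known. Members with values in every sample are those past 0.05 in siControl at 16 h with an absolute log2 fold change of at least 1, those past 0.05 in a knockdown comparison or interaction at 16 h, and the MiT/TFE factors. From each further list, up to 3 genes per direction with the smallest adjusted p were eligible. One gene eligible by this rule is not reported here. Alternatives were DESeq2 1.42.0, RLE factors, no filter, other sets of libraries, replicate blocks and single libraries left out. The pipeline was tested on simulated data. Gene positions and exon overlaps are from GENCODE 29, promoters from RefSeq (GRCh38.p14).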

Additional observations from a re-analysis of the deposited data

Results flagged for a closer look

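In siControl cells 8 members had a deprivation response at 16 h that differed from that at 6 h in an interaction test (edgeR, 35 libraries, adjusted p under 0.05). The differences, as log2 fold change at 16 h minus that at 6 h, were 2.08 for WIPI1, 1.87 for MAP1LC3B, 1.32 for ULK1, 1.18 for SQSTM1, 1.05 for CTSL, 0.87 for FLCN, 0.71 for NBR1 and 0.44 for BECN1. The 6 h side of each holds replicate 2, in which 1 of the 19 members that rose at 16 h was higher in 0 mM, against 19 in replicate 1 and 16 in replicate 3. Without replicate 2 of 6 h, WIPI1, MAP1LC3B, ULK1, SQSTM1 and CTSL remained past the threshold.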

How the results depend on the processing

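None of the member values recomputed, chiefly those past the threshold, changed direction under the alternatives run. The counts of members past 0.05 moved most with all 36 libraries in the fit, which gave 3 for deprivation in siControl at 16 h, 0 in siATF4 and 4 in siATF6, 0 for either knockdown against siControl in either medium at 16 h, and 0 for the change with time. The adjusted p of most members rose past the threshold there. For siATF6 against siControl at 6 h, all 18 libraries of that time and no filter gave 0 each. Only the libraries compared gave 5 for deprivation in siATF4 at 16 h, 0 for siATF4 and 3 for siATF6 against siControl in 0 mM. RLE factors gave 2 for the last of these. DESeq2 gave 8 for siATF4 and 7 for siATF6 against siControl in 0 mM, 1 for siATF4 in 25 mM, 1 for siATF4 minus siATF6 and 6 for siATF6 at 6 h. Without replicate 2 of 6 h the counts were 2 for deprivation at 6 h in each siRNA, 4 for siATF6 against siControl at 6 h and 5 for the change with time.

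Same-numbered libraries of 1 siRNA correlated in their deviations at over 0.1 in 7 of 9 pairs at 16 h (range -0.3575 to 0.5505) and in 6 of 8 at 6 h. Across siRNAs 33 of 36 pairs at 16 h (median 0.305) and 30 of 32 at 6 h (median 0.408) did, against medians of -0.277 and -0.22 for unlike numbers. As not every pair passed, the numbers were not taken to pair the samples, though these values are a hint from the data that they may. With the replicate number as a block, the counts were 2 for the interaction with siATF4 (MAP1LC3B and GABARAPL1), 3 for siATF4 minus siATF6, 12 for siATF4 and 7 for siATF6 against siControl in 0 mM, 1 for siATF4 in 25 mM, 1 for siATF4 and 8 for siATF6 at 6 h, and 14 for the change with time.

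With 1 library left out at a time the counts ranged over 15 to 20 for deprivation in siControl at 16 h, 11 to 24 in siATF4 and 18 to 19 in siATF6. They ranged over 1 to 7 for siATF4 and 0 to 3 for siATF6 against siControl in 0 mM, 0 to 1 and 0 to 2 in 25 mM, 0 to 2 for siATF6 at 6 h, and 4 to 12 for the change with time. Of the values of single members, 415 kept their side of the threshold, 112 lost it and 3 gained it over the other alternatives, and 425 kept and 103 lost it with 1 library left out. The lowest member, TFEB, was at 1.36 CPM or more in each library of 16 h, and whether depth limits the call of any member was not tested.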
